A study of Mus musculus with 6 samples.

Results

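Albumin and 9 further abundant carrier proteins of the plasma were described at the level of their liver mRNAs. The members were the rows of the deposited count table whose symbol was Alb, Afp, Ttr, Trf, Ahsg, Gc, Ambp, Fetub, Itih1 or Itih3, that is 10 of 41388 genes, and all 10 were present and were tested. Livers came from male C57BL/6 mice of the line *Mttp* f/f Villin Cre ER T2, which carry a floxed microsomal triglyceride transfer protein gene and a Cre recombinase that tamoxifen activates in the intestinal epithelium, where the Villin promoter is active. *Mttp-IKO* mice received tamoxifen at 50 µg/g body weight per day for 5 days. Littermates injected with vehicle served as controls (their GEO label is wild type), so the transgene was shared and the tamoxifen was not, and an effect of the drug itself cannot be told apart from the deletion. The mice were 12 to 16 weeks old. Starting 3 weeks after the injections, all of them were fed a diet lacking methionine and choline (MCD) for 3 weeks, which injures the liver. They were fasted for 4 h before liver RNA was taken. Each genotype was sequenced as 3 pools of RNA from 3 to 4 mice each, so n counts pools, and the spread between pools does not show that between single mice.

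Hepatocytes secrete nearly all plasma carrier proteins. Albumin carries fatty acids, bilirubin and many drugs and sets much of the oncotic pressure of blood, and its mRNA is among the most abundant in the liver. Alpha-fetoprotein (Afp) takes its place in the fetus and is silenced after birth. The vitamin D-binding protein (Gc) belongs to the same gene family, whereas transthyretin (Ttr) carries thyroxine and holds retinol-binding protein in the circulation, and transferrin (Trf) carries iron. Fetuin-A (Ahsg) keeps calcium phosphate in solution and fetuin-B (Fetub) inhibits a protease of the egg. Ambp encodes a precursor that is cut into the heme-binding alpha-1-microglobulin and bikunin, and Itih1 and Itih3 encode heavy chains that are linked to bikunin in the inter-alpha-trypsin inhibitor complexes and transferred to hyaluronan. Liver makes several of these proteins less during inflammation and malnutrition.

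None of the 10 mRNAs passed an adjusted p of 0.05 between the genotypes (edgeR, adjusted p from 0.122 to 0.981), against 4.01% of the 17287 genes tested, of which 159 (0.920%) were higher and 535 (3.09%) lower in *Mttp-IKO* pools. Without TMM scaling, the trimmed-mean factors edgeR applies to library sizes, that split was 113 higher and 902 lower. At an unadjusted p of 0.05, 3 of the 10 (Alb, Afp and Itih3) passed, against 23.0% of all genes, and DESeq2 called the same 3 (11.6% of all genes) whereas limma-voom called 0 (2.48% of all genes). Control and *Mttp-IKO* pools did not overlap in 4 of the 10, against 31.0% of all genes. Of these 4, Alb, Itih1 and Itih3 lay higher in every *Mttp-IKO* pool (14.6% of all genes did so) and Ttr lay lower in every one (16.5% of all genes). With 10 members, each of these counts lies within 2 genes of what the share of all genes would give. The log2 fold change was positive for 6 members and negative for 4, with a median of 0.21 against 0.0059 over all genes tested.

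The pools held 25271585 to 36238734 reads on genes. Mttp itself was at 150 ± 52.1 CPM (counts relative to library size after TMM scaling) in control and 145 ± 15.9 CPM in *Mttp-IKO* liver, which does not check the labels, since the deletion is intestinal. Hepatocyte genes other than plasma proteins (10 of 10 of the list, none at 0) summed to 7269 to 9254 CPM in control pools and 8807 to 15409 CPM in *Mttp-IKO* pools. Of these, 0 of 10 were called by edgeR (4.01% of all genes) and 3 of 10 had an unadjusted p under 0.05 (23.0% of all genes). Of 7 stellate cell markers edgeR called 3 lower (Lrat, Colec11 and Pdgfrb), against 3.09% of all genes. Of 7 Kupffer cell and macrophage markers it called 1 higher (Timd4), against 0.920% of all genes. The median log2 fold change of the Kupffer cell and macrophage list was -0.19. Cd68 and Adgre1 were lower in every *Mttp-IKO* pool without passing (-1.45 and -0.98, adjusted p = 0.0507 and 0.0895, edgeR). The rest of the list overlapped and went both ways. Marco and Vsig4 had log2 fold changes of 1.31 and 0.12 (adjusted p = 0.195 and 0.780, edgeR). Those of Clec4f and Cd5l were -0.19 and -0.74 (adjusted p = 0.503 and 0.214, edgeR). Of the 7, 5 had an unadjusted p under 0.05 by edgeR (23.0% of all genes). In bulk RNA, fewer cells of a type and less RNA per cell cannot be told apart. Control pool 2 held RNA of striated muscle (553 summed CPM against 66.5 and 0.87 in the other control pools and 0.46 to 1.03 in *Mttp-IKO* pools). *Mttp-IKO* pool 3 stood apart from the other 5: small RNA genes took 0.634% of its reads against 3.60 to 5.27%, and protein-coding genes of 300 nt to 1 kb took 1.20% against 2.79 to 3.31%. This pool was also the lowest of the 6 for 3 members and the highest for 3, and for members it moved the most, values are given with and without it.

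Per length of transcript, the members kept 1 order in both genotypes. By TMM-scaled RPKM (CPM per kilobase of transcript) the level of Alb was 26474 ± 7068 in control and 51219 ± 12029 in *Mttp-IKO* pools (SD, n = 3 each here and below). Ahsg followed with 7641 ± 869 and 7575 ± 282, then Ttr with 2700 ± 419 and 1845 ± 563 and Gc with 1876 ± 15.3 and 1845 ± 413. Ambp was at 833 ± 40.2 and 876 ± 227, and the other 5 members lay lower still. Itih3 was at 260 ± 35.4 and 409 ± 64.6, Trf at 232 ± 1.51 and 220 ± 43.3, Fetub at 123 ± 16.1 and 157 ± 78.3, and Itih1 at 86.1 ± 23.9 and 119 ± 3.27. Afp was last by far with 3.91 ± 0.963 and 11.6 ± 9.43. Neighbours in this order whose pools overlapped were Itih3 with Trf and Fetub with Itih1 in control liver, and Ttr with Gc, Trf with Fetub and Fetub with Itih1 in *Mttp-IKO* liver. The level of Trf may be understated, since 2108 of its 3320 exonic bases also belong to the annotated gene Gm20425 and reads there were ambiguous.

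**Figure D1:**
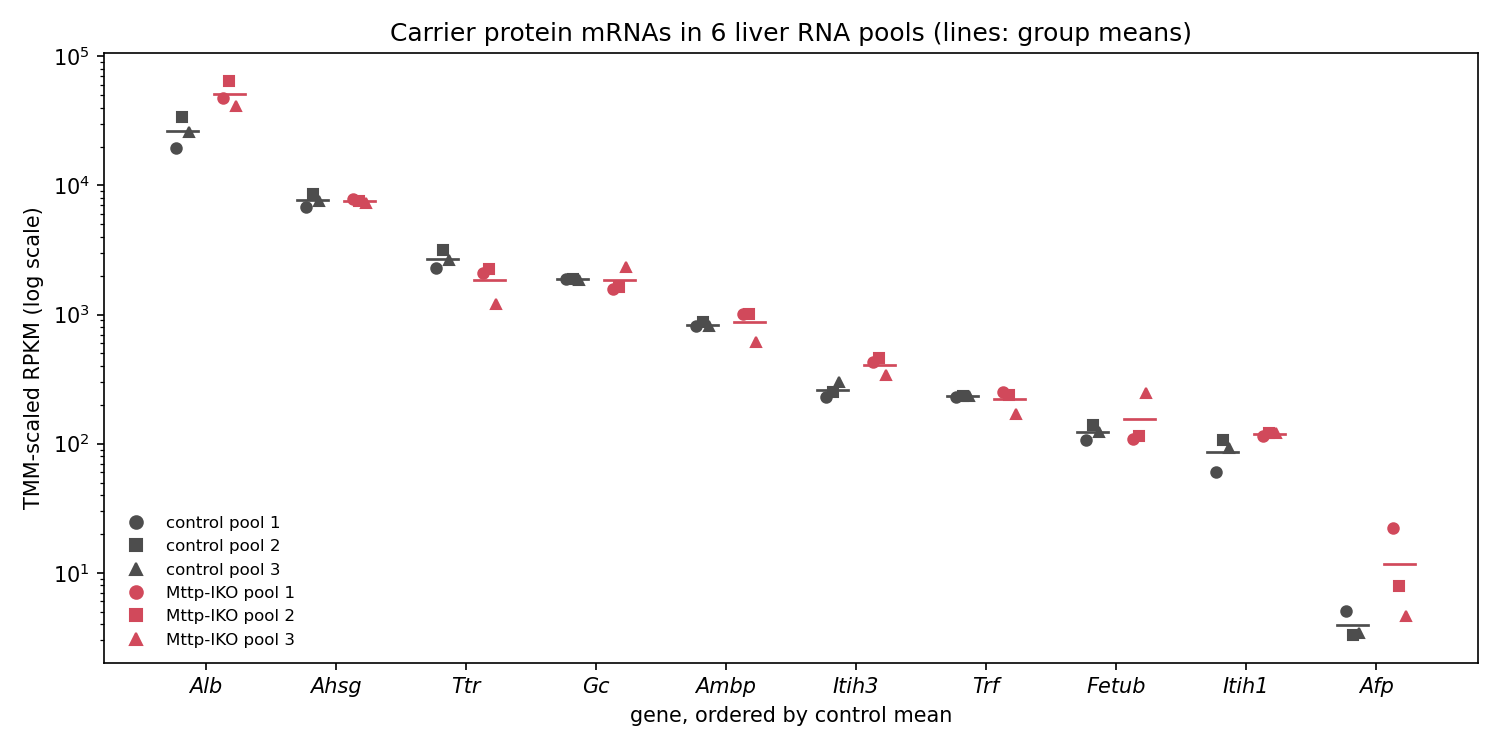
TMM-scaled RPKM (log scale) of the 10 members in each of the 6 RNA pools, control in grey and *Mttp-IKO* in red, with lines at group means. Alb lies highest, with all 3 *Mttp-IKO* pools above all control pools, Afp spans the widest range (3.31 to 22.4 RPKM), and the red triangle (*Mttp-IKO* pool 3) lies below the other *Mttp-IKO* pools for Alb, Ahsg, Ttr, Ambp, Itih3, Trf and Afp and above them for Gc, Fetub and Itih1.

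Alb alone took a large part of the library. It held 4.47%, 7.06% and 5.63% of all reads in control pools 1 to 3 and 9.50%, 11.9% and 7.998% in *Mttp-IKO* pools 1 to 3, so the genotypes did not overlap (5.72 ± 1.298% against 9.79 ± 1.95%). It was the gene with the most reads in 5 pools and the second in control pool 1, behind the noncoding RNA gene Gm26917. Exact (Clopper-Pearson) 95% intervals of a share, which cover counting error only, reached at most 2.46% of the share to either side, apart from Afp with 13.2%. The 10 members together took 6.63%, 9.45% and 7.89% of reads in control pools and 11.6%, 13.8% and 9.88% in *Mttp-IKO* pools. The difference of the means was 3.77 percentage points (p = 0.1 in a two-sided exact permutation test, the lowest value that 6 pools allow; 0.24 after Benjamini-Hochberg adjustment over 12 shares).

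Without Alb, the order of the genotypes by share of all reads was the opposite. The other 9 members summed to 2.16%, 2.39% and 2.26% of reads in control pools and to 2.09%, 1.93% and 1.88% in *Mttp-IKO* pools, again without overlap (2.27 ± 0.116% against 1.97 ± 0.111%, exact permutation p = 0.1, adjusted 0.24). The denominator was all reads, those of Alb included, so a larger share of Alb lowers the shares of the other 9. A share of the reads left after removing Alb was not tested, so the lack of overlap is shown for shares of all reads only. After TMM scaling, Ttr alone of these 9 lay lower in every *Mttp-IKO* pool, and Itih1 and Itih3 lay higher. The share of Ahsg was 1.20 ± 0.0863% in control and 1.05 ± 0.0693% in *Mttp-IKO* pools, with overlap. Ttr held 0.312%, 0.391% and 0.343% of control reads and 0.249%, 0.246% and 0.138% of *Mttp-IKO* reads, without overlap. Gc (0.362 ± 0.0172% and 0.314 ± 0.0718%), Ambp, Itih3, Trf, Itih1 and Fetub each held at most 0.397% in any pool, and Afp at most 0.00456%.

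**Figure D2:**
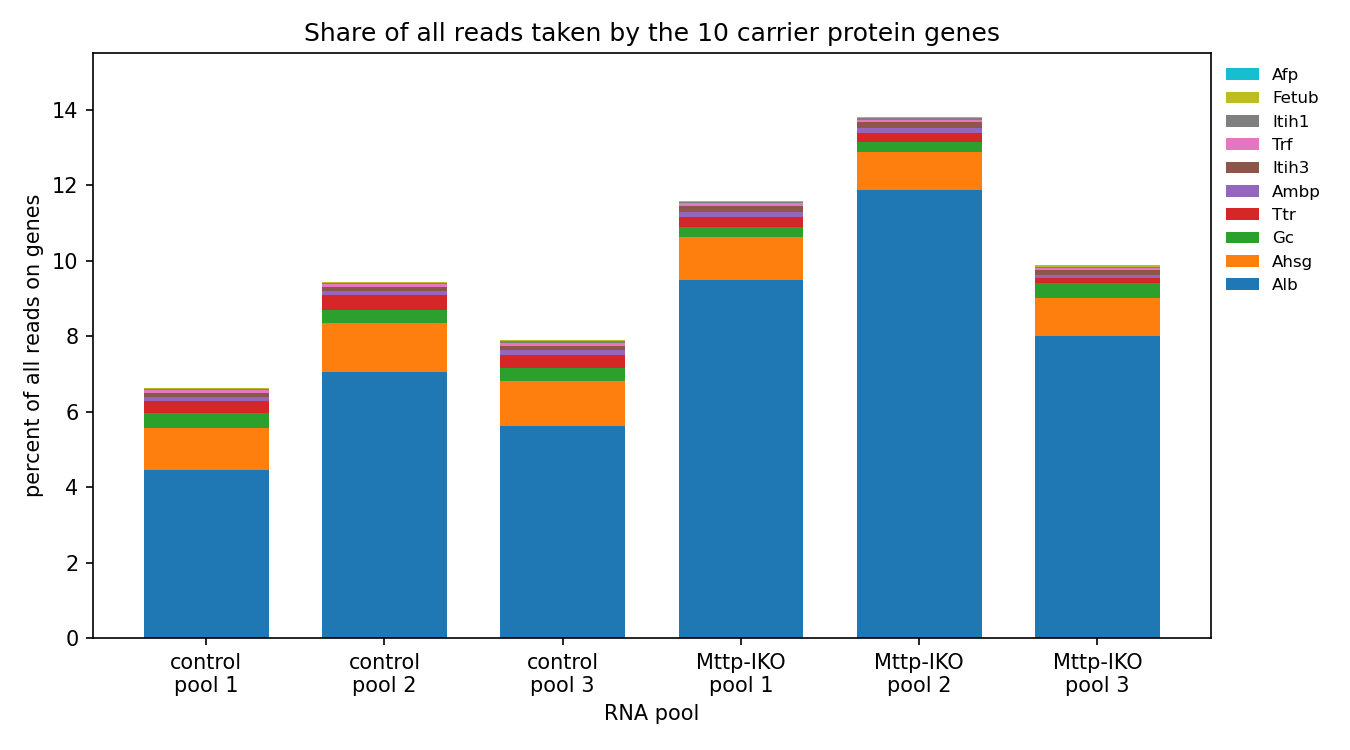
Percent of all reads on genes taken by each of the 10 members in the 6 RNA pools, stacked. Alb makes up most of every bar, and the bars reach 6.63 to 9.45% in control and 9.88 to 13.8% in *Mttp-IKO* pools.

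Alb and Afp lie next to each other, and their promoters are shown with that of Gc because the 3 genes are members of 1 family on 1 chromosome. Alb (ENSMUSG00000029368, GRCm38 chromosome 5, 90460889 to 90476603) and Afp (ENSMUSG00000054932, chromosome 5, 90490714 to 90508907) are on the plus strand 14.1 kb apart. Gc (ENSMUSG00000035540, chromosome 5, 89417511 to 89457898) is on the minus strand 1003 kb from Alb. The sequences are the 250 bases before the RefSeq start of each gene (GRCm38.p6), 5′ to 3′ on the gene's strand, with capitals at matches to 5 short motifs on either strand.
Alb (chr5:90460620-90460869, plus strand): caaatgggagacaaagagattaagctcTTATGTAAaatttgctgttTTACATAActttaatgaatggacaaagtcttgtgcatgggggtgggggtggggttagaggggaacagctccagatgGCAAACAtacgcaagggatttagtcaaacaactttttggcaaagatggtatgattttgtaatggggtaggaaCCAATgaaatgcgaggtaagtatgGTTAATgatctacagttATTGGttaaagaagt
Afp (chr5:90490464-90490713, plus strand): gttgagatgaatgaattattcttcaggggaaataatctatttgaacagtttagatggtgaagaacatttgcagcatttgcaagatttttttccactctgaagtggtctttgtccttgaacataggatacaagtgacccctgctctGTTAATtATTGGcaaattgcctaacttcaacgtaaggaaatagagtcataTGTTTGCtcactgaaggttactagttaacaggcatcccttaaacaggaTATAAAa
Gc (chr5:89457899-89458148, minus strand): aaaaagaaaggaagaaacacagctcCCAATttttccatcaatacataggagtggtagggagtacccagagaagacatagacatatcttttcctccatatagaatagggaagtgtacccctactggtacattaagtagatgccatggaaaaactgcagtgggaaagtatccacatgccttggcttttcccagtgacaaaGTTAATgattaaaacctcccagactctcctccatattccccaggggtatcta

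The motifs searched were GTTAAT (part of the site of HNF1), TTATGTAA, TGTTTGC (a core of FOXA sites), CCAAT and TATAAA. TTATGTAA is a D-box sequence of the kind that DBP and C/EBP factors bind. No matches overlapped in these 3 windows. GTTAAT was found in 4 of the 8 members searched (Alb, Afp, Gc and Itih1), against 6.43% of 32851 RefSeq promoters. Promoters were matched by symbol. Ttr was left out of the search and a further member had no promoter matched, so no absence of a match is read for Trf or Itih3. Alb held 2 matches to TTATGTAA, 1 on each strand, whereas 0.819% of promoters hold at least 1, and no other of the 8 members held one. TGTTTGC was present in Alb, Afp, Ahsg, Ambp and Fetub (4.30% of promoters), CCAAT in Alb, Afp, Gc, Ambp and Fetub (33.8%) and TATAAA in Afp and Fetub (12.4%). Gc shared with Alb and Afp the GTTAAT and CCAAT matches but held neither TTATGTAA nor TGTTTGC. A match is a run of letters and not a measured site.

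Alb was at 40088, 68931 and 53240 CPM in control pools and at 97136, 132094 and 84692 CPM in *Mttp-IKO* pools. The lowest *Mttp-IKO* pool lay above the highest control pool, and control pool 1 was the lowest of all. The means were 54086 ± 14440 and 104640 ± 24576 CPM, a ratio of 1.93 (log2 fold change 0.95, standard error 0.347, 95% interval 0.15 to 1.75), with an adjusted p of 0.157 by edgeR. The DESeq2 Wald test gave 0.96 with an adjusted p of 0.00740. When 1 pool was left out at a time the value lay between 0.75 and 1.15 and no edgeR call was made, with adjusted p from 0.0771 to 0.436.

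Afp had the largest fold change of the 10 and the widest spread. Its counts were 423, 249 and 228 reads in control pools and 1449, 484 and 230 reads in *Mttp-IKO* pools, or 10.5, 6.90 and 7.11 CPM against 46.7, 16.6 and 9.64 CPM. *Mttp-IKO* pool 1 lay far above the rest, and *Mttp-IKO* pool 3 lay below control pool 1, so the genotypes overlapped. The log2 fold change was 1.57 (standard error 0.526, 95% interval 0.36 to 2.78, adjusted p = 0.131 by edgeR). It was 0.68 without *Mttp-IKO* pool 1, and 1.95 with an adjusted p of 0.0483 (edgeR) without *Mttp-IKO* pool 3, where 4.84% of all genes passed. DESeq2 on all pools gave 1.59 (adjusted p = 0.0174). Within a pool, the log2 ratio of Afp to Alb counts was -11.9, -13.3 and -12.9 in control and -11.0, -13.0 and -13.1 in *Mttp-IKO* pools, a difference of 0.32 (exact permutation p = 0.7, adjusted 0.817 over 7 ratios).

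Gc was nearly constant among control pools and varied among *Mttp-IKO* pools. It had 3425, 3405 and 3370 CPM in control and 2849, 2977 and 4203 CPM in *Mttp-IKO* pools. Pools 1 and 2 of *Mttp-IKO* liver lay below every control pool and pool 3 above, and the log2 fold change was -0.025 (95% interval -0.55 to 0.50, adjusted p = 0.963, edgeR). Without *Mttp-IKO* pool 3 it was -0.22 (adjusted p = 0.352, edgeR). The ratio of Gc to Alb counts had log2 values of -3.55, -4.34 and -3.98 in control and -5.09, -5.47 and -4.33 in *Mttp-IKO* pools, a difference of -1.01 with overlap (exact permutation p = 0.2, adjusted 0.467). This difference was -1.33 without *Mttp-IKO* pool 3. The remaining gene of the family, Afm (afamin, which binds vitamin E; 10.03 kb beyond Afp and named for its position after its values were known), was at 106 ± 32.1 and 146 ± 29.6 CPM (log2 fold change 0.46, adjusted p = 0.324, edgeR; 0.28 without *Mttp-IKO* pool 3 and 0.23 without control pool 1). Thus 0 of the 4 genes of the albumin family passed the test, 2 had an unadjusted p under 0.05 (23.0% of all genes), and their median log2 fold change was 0.70.

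Trf (ENSMUSG00000032554, chromosome 9, 103204001 to 103230444) had the most even control pools of all members, with 765, 774 and 773 CPM. *Mttp-IKO* pools 1 to 3 had 840, 785 and 568 CPM. Pools 1 and 2 lay above and pool 3 below all controls, and the log2 fold change was -0.077 (95% interval -0.54 to 0.39, adjusted p = 0.854, edgeR) with all pools and 0.078 without pool 3. Relative to Alb, Trf was lower in every *Mttp-IKO* pool: the log2 count ratio was -5.71, -6.48 and -6.11 in control and -6.85, -7.40 and -7.22 in *Mttp-IKO* pools, a difference of -1.06 (exact permutation p = 0.1, adjusted 0.35). Of 9 genes for receptors of carrier proteins, 6 had enough reads to be tested, and 1 of these passed (4.01% of all genes). Tfr2, which encodes the liver receptor by which hepatocytes sense iron-loaded transferrin, rose from 186 ± 14.2 to 340 ± 31.0 CPM by edgeR (adjusted p = 0.0340, log2 fold change 0.87 with a standard error of 0.165), a call that was lost in 5 of 6 fits that left out 1 pool (adjusted p up to 0.162). The most abundant of them per length (mean RPKM over all pools), Asgr1, a subunit of the receptor for glycoproteins that lost sialic acid, was at 273 ± 51.0 and 322 ± 104 CPM (log2 fold change 0.24, adjusted p = 0.641, edgeR; 0.49 and 0.136 without *Mttp-IKO* pool 3).

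Ttr (ENSMUSG00000061808, chromosome 18, 20665250 to 20674324) was the 1 member with lower values in every *Mttp-IKO* pool. It had 2805, 3823 and 3248 CPM in control and 2546, 2737 and 1464 CPM in *Mttp-IKO* pools, where pool 3 was lowest. The log2 fold change was -0.55 (standard error 0.284, 95% interval -1.20 to 0.10, adjusted p = 0.290, edgeR), and without *Mttp-IKO* pool 3 it was -0.32. The gene overlaps the antisense RNA gene Gm16090 by 11 exonic bases, and reads counted for the latter came to 0.0149% of those of Ttr.

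The ratio of Ttr to its partner separated the genotypes more tightly than Ttr itself. Rbp4, which encodes the retinol-binding protein that Ttr holds in plasma, was at 1988 ± 392 CPM in control and 2557 ± 791 CPM in *Mttp-IKO* liver (difference on the log2 scale 0.36, adjusted p = 0.494, edgeR; 0.60 and 0.112 without *Mttp-IKO* pool 3). The log2 ratio of Ttr to Rbp4 counts was 0.82, 0.69 and 0.69 in control pools and -0.22, -0.16 and -0.17 in *Mttp-IKO* pools. Ttr thus had more reads than Rbp4 in every control pool and fewer in every *Mttp-IKO* pool. The difference was -0.92 (0.74 ± 0.0758 against -0.18 ± 0.0298), with an exact permutation p of 0.1, the smallest possible, and 0.35 after adjustment over the 7 ratios. It was between -0.94 and -0.87 when any 1 pool was left out, and -0.92 after the trend of each library with gene length was removed. In the pool that stood apart, *Mttp-IKO* pool 3, both mRNAs were at their lowest among the *Mttp-IKO* pools, and their ratio lay between those of the other 2.

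**Figure D3:**
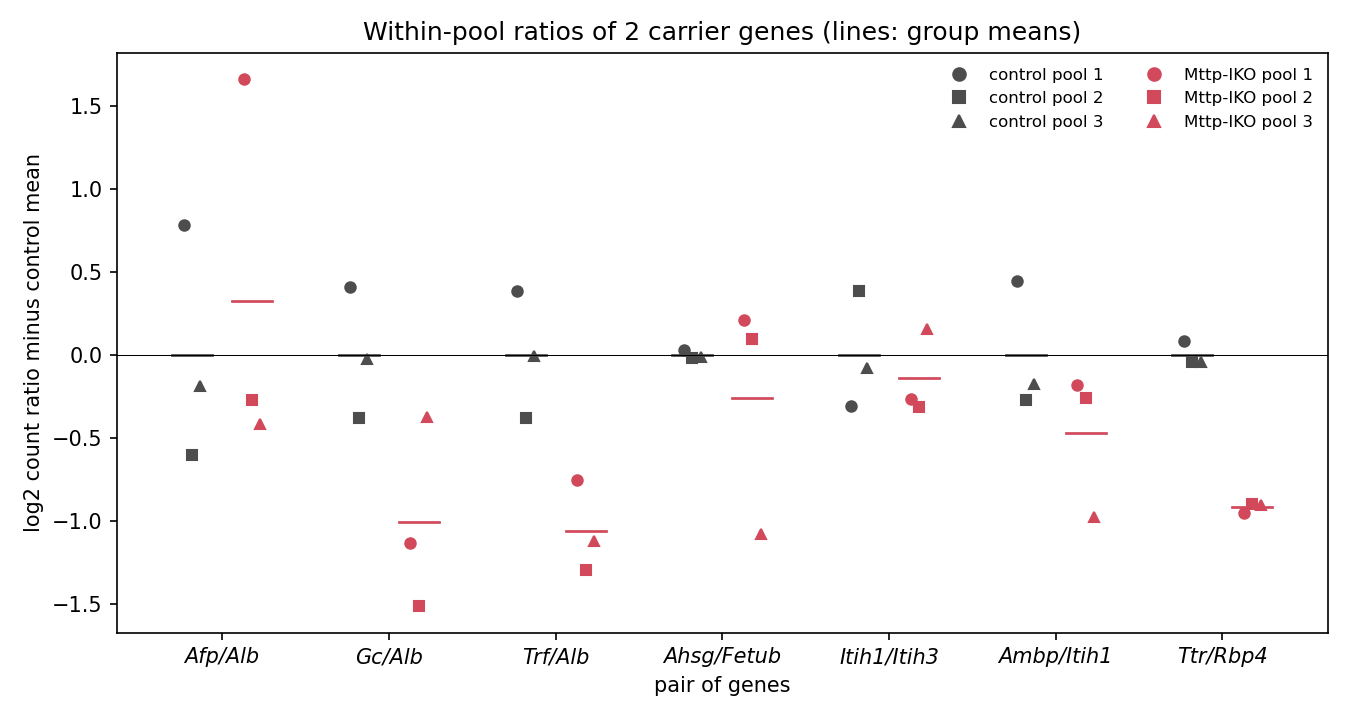
Within-pool log2 count ratios of 7 pairs of genes, each minus the control mean of the pair, with lines at group means. The genotypes do not overlap for Trf/Alb and Ttr/Rbp4, and the 3 *Mttp-IKO* points of Ttr/Rbp4 lie together at about -0.92, whereas Afp/Alb and Ahsg/Fetub spread widely within the *Mttp-IKO* pools.

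The fetuins differed in how steady they were. Ahsg (ENSMUSG00000022868, chromosome 16, 22892042 to 22899438) was at 10004, 12565 and 11218 CPM in control and 11560, 11207 and 10731 CPM in *Mttp-IKO* pools. All *Mttp-IKO* pools lay within the control range, and the log2 fold change was -0.012 (95% interval -0.54 to 0.51, adjusted p = 0.981, edgeR). Fetub (ENSMUSG00000022871, chromosome 16, 22918382 to 22939766) was at 204, 265 and 235 CPM in control and 208, 218 and 473 CPM in *Mttp-IKO* pools. The value of *Mttp-IKO* pool 3 set the sign, as the log2 fold change was 0.35 (95% interval -0.40 to 1.10, adjusted p = 0.555, edgeR) with it and -0.14 without it. The log2 ratio of Ahsg to Fetub was 5.62, 5.57 and 5.58 in control and 5.80, 5.68 and 4.51 in *Mttp-IKO* pools, a difference of -0.26 (exact permutation p = 1), and 0.15 without *Mttp-IKO* pool 3.

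These 2 genes open a run on chromosome 16 that goes on with Hrg, Kng2 and Kng1, all of the cystatin superfamily, with no other protein-coding gene between. The other 3 lay higher in every *Mttp-IKO* pool (14.6% of all genes did so). Kng1, the kininogen from which bradykinin is cut, was at 1183, 1203 and 1189 CPM in control and 1892, 1998 and 1825 CPM in *Mttp-IKO* pools, a log2 fold change of 0.68 with a standard error of 0.177 (adjusted p = 0.0746, edgeR). Hrg and Kng2, named for their position after their values were known, had log2 fold changes of 0.88 (adjusted p = 0.0645, edgeR) and 0.57 (adjusted p = 0.0739, edgeR). By DESeq2 all 3 passed, with adjusted p from 0.000118 to 0.00287 (11.6% of all genes passed), and by edgeR Kng1 and Kng2 passed without *Mttp-IKO* pool 3 (0.0344 and 0.0442, where 4.84% of all genes passed) and Hrg after the length trend was removed (0.0437). With any other 1 pool left out none of the 3 passed by edgeR, with adjusted p up to 0.308 for Kng1, 0.320 for Kng2 and 0.251 for Hrg. With all pools 0 of the 5 passed by edgeR, 3 had an unadjusted p under 0.05 (23.0% of all genes) and the median was 0.57.

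The inter-alpha-trypsin inhibitors are built from the products of several of these genes. Ambp (ENSMUSG00000028356, chromosome 4, 63143275 to 63154799), the source of bikunin, had 1142, 1239 and 1141 CPM in control and 1429, 1410 and 865 CPM in *Mttp-IKO* pools. Pools 1 and 2 lay above and pool 3 below every control, with a log2 fold change of 0.073 (95% interval -0.47 to 0.62, adjusted p = 0.884, edgeR) and 0.28 without pool 3. The heavy chain gene Itih3 (ENSMUSG00000006522, chromosome 14, 30908573 to 30923760) had 835, 919 and 1088 CPM in control and 1558, 1682 and 1227 CPM in *Mttp-IKO* pools. All 3 lay above the controls, with a log2 fold change of 0.65 (standard error 0.211, 95% interval 0.17 to 1.14, adjusted p = 0.122, edgeR). Without *Mttp-IKO* pool 3 the value was 0.78 with an adjusted p of 0.0447 (edgeR), and DESeq2 on all pools gave 0.67 with an adjusted p of 0.0186.

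Itih1 (ENSMUSG00000006529, chromosome 14, 30929180 to 30943289) lies 5.42 kb from Itih3 on the same strand. It had 197, 351 and 302 CPM in control and 380, 396 and 400 CPM in *Mttp-IKO* pools. Its *Mttp-IKO* pools were close together and above the controls, among which pool 1 was low (log2 fold change 0.47, standard error 0.229, 95% interval -0.061 to 0.996, adjusted p = 0.268, edgeR), whereas its shares of all reads overlapped. The value was 0.24 without control pool 1 and 0.30 with total counts only as the scaling. The log2 ratio of Itih1 to Itih3 differed by -0.14 (exact permutation p = 0.6) and that of Ambp to Itih1 by -0.47 (exact permutation p = 0.4), both with overlap. Itih4, the heavy chain gene on the other side of Itih3 whose product does not need bikunin, was at 1411 ± 24.9 and 2068 ± 85.7 CPM (log2 fold change 0.55, adjusted p = 0.123, edgeR; 0.00294 by DESeq2). The list for this family also held Tnfaip6, which is not itself an inhibitor gene and had 0 to 14 reads per pool. Of the 7 genes of the list 0 passed, 3 had an unadjusted p under 0.05 (23.0% of all genes), 4 lay higher in every *Mttp-IKO* pool (14.6% of all genes), and the median log2 fold change was 0.47.

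**Figure D4:**
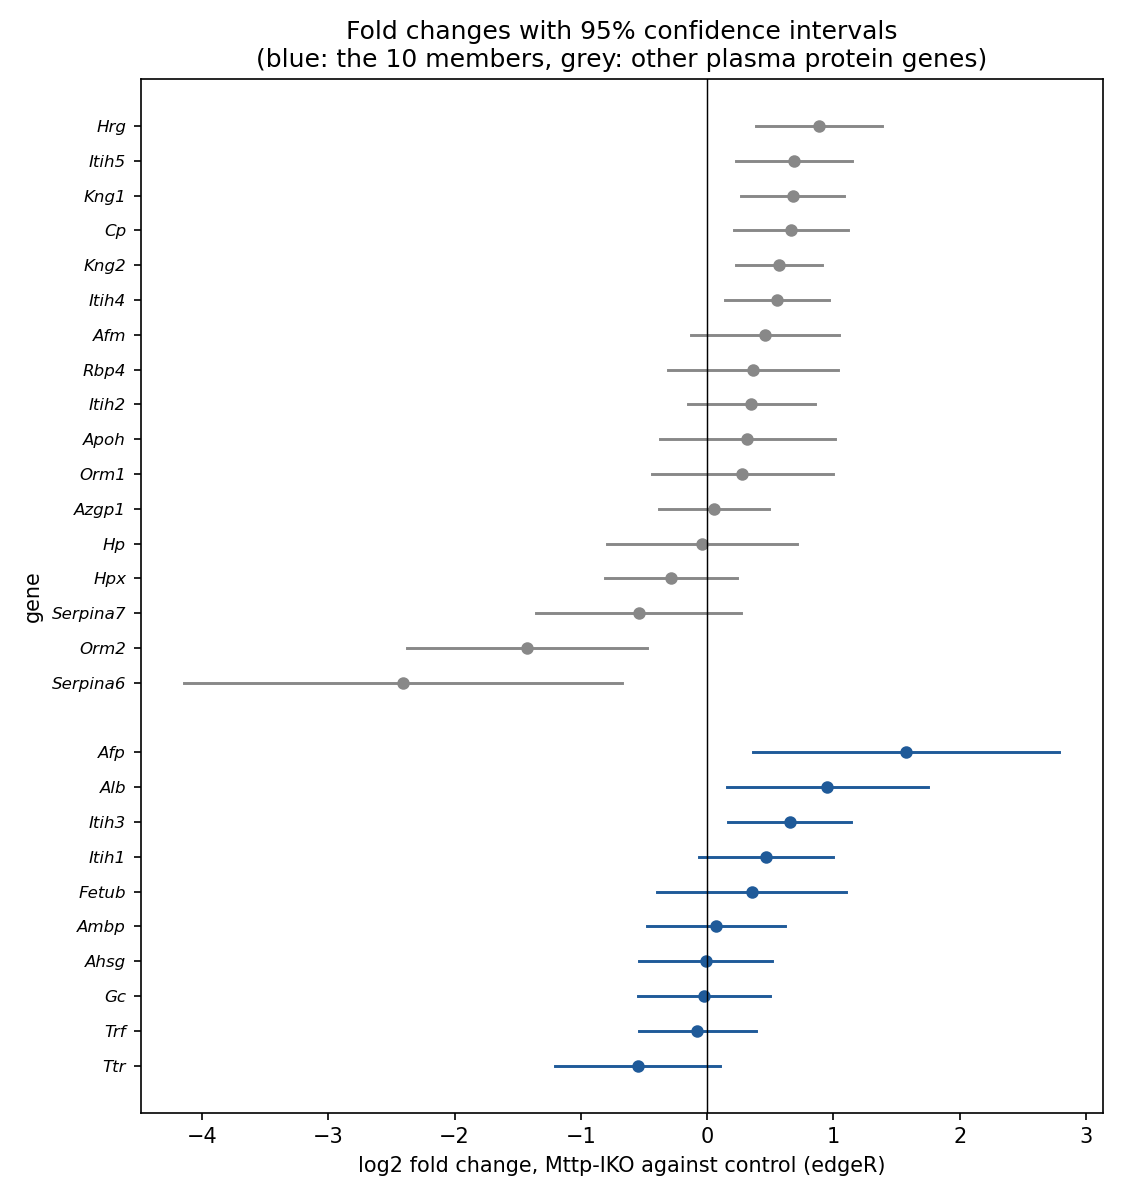
Log2 fold change of *Mttp-IKO* against control (edgeR, TMM scaling) with 95% confidence intervals for the 10 members in blue and 17 other plasma protein genes in grey. Of the members, the intervals of Afp, Alb and Itih3 lie above 0 before adjustment, and the interval of Afp (0.36 to 2.78) is the widest.

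Among 13 other plasma transport genes (Afm and Rbp4 included), of which 12 were tested, 0 passed by edgeR and 3 had an unadjusted p under 0.05 (23.0% of all genes). In every *Mttp-IKO* pool 2 lay higher (14.6% of all genes) and 2 lay lower (16.5% of all genes), and the median log2 fold change was 0.16. The 2 most abundant, hemopexin (Hpx, which binds free heme) and haptoglobin (Hp, which binds free hemoglobin), had log2 fold changes of -0.29 and -0.042 (adjusted p = 0.486 and 0.955, edgeR). Transcription factors known to act on hepatocyte genes gave 0 passed of 11 by edgeR, with 6 at an unadjusted p under 0.05 (23.0% of all genes), and a median of 0.43. Of these 6, Dbp, a clock-driven factor named after its values were known, lay lower in every *Mttp-IKO* pool, with 54.0, 73.4 and 56.8 CPM in control against 6.44, 16.1 and 35.7 CPM (log2 fold change -1.67, adjusted p = 0.112, edgeR; -2.45 and 0.0250 without *Mttp-IKO* pool 3, and 0.0104 by DESeq2), and the other 5 lay higher. Hnf4a, a nuclear receptor required for many hepatocyte genes, was at 616 ± 62.5 CPM in control and 1129 ± 234 CPM in *Mttp-IKO* pools without overlap (log2 fold change 0.87, adjusted p = 0.0664, edgeR; 0.0489 after the length trend was removed and 0.00180 by DESeq2). Cebpb, a factor of the acute phase, was at 284 ± 31.0 and 384 ± 216 CPM with overlap (adjusted p = 0.521, edgeR) and its log2 fold change of 0.43 was -0.10 without *Mttp-IKO* pool 3.

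Of 6 genes that repress Afp or mark fetal liver, 5 were tested and 1 passed (4.01% of all genes), in the direction opposite to the difference in Afp means. The fetal genes were mixed in direction. Igf2 and Gpc3, named after their values were known, had log2 fold changes of -1.32 and 0.56 (adjusted p = 0.129 and 0.297, edgeR). H19, a noncoding RNA that like Afp is high in fetal liver and silenced after birth, fell from 49.7, 25.7 and 26.5 CPM in control to 3.96, 1.10 and 3.35 CPM in *Mttp-IKO* pools. Its log2 fold change was -3.60 (standard error 0.482, adjusted p = 0.0181, edgeR), and the call was lost in 4 of 6 fits that left out 1 pool (adjusted p up to 0.0914). Zbtb20 and Zhx2, which encode repressors of Afp in adult liver, had 494 ± 13.1 and 628 ± 322 CPM (log2 fold change 0.34, adjusted p = 0.569, edgeR) and 34.5 ± 4.37 and 46.9 ± 15.1 CPM (0.44, adjusted p = 0.299, edgeR). Without *Mttp-IKO* pool 3 the log2 fold changes were -0.16 for Zbtb20 and 0.15 for Zhx2.

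The genes whose log2 CPM followed Alb most closely over the 6 pools, out of 8580 with a mean of at least 10 CPM, were Fasn (fatty acid synthase, Pearson r = 0.999), Slc10a1 (the bile acid uptake transporter NTCP, r = 0.996) and Rwdd4a (r = 0.995). Fasn had 277, 666 and 427 CPM in control and 1110, 1926 and 951 CPM in *Mttp-IKO* pools, the same rank order of the 6 pools as Alb. For Afp they were Alg8 (r = 0.994), Nomo1 (r = 0.991) and Plbd1 (r = 0.979), a glucosyltransferase and a membrane protein of the endoplasmic reticulum and a phospholipase-like protein. An r of at least 0.9 was reached by 403 of the genes compared for Alb and by 70 for Afp. With 6 pools in 2 genotypes and so many genes compared, such values are a description of these libraries.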

How the data were processed

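Total liver RNA was depleted of ribosomal RNA and sequenced as 3 control and 3 *Mttp-IKO* pools, grouped by their GEO labels. The authors aligned reads with STAR 2.5.1a to GRCm38 and deposited, per pool, the count of uniquely aligned, unambiguous reads for 41388 genes (featureCounts 1.4.6-p5, strand setting not given in the sources used here). The deposited CPM and RPKM values follow from these counts and the gene length the authors gave, so tests were run on counts alone. The joint table that the authors also deposited gives symbols for 40481 genes and the same counts, after 276 repeated lines were dropped.

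Genes were filtered by filterByExpr (minimum count 10, minimum total 15), scaled by TMM (factors 0.899 to 1.11) and compared by the quasi-likelihood test of edgeR 4.0.16 (R 4.3.3), with Benjamini-Hochberg adjustment over all genes tested and a threshold of 0.05. Standard errors are the absolute log2 fold change over the square root of F. Shares and within-pool ratios were compared by exact permutation of pools, two-sided. A count of 0 allows 3 reads, 0.0828 to 0.119 CPM. No 2 pools of a genotype were alike to within sampling noise. The members and gene lists were chosen with earlier results of these data known. Named besides the members are the 2 most abundant genes of each list and those past the threshold, the partners of the ratios, called cell type markers, and neighbours on the chromosome. A few further genes were named after their values were known. Promoters are from RefSeq. Alternatives were other scalings, DESeq2 1.42.0, limma 3.58.1 (voom), no filter, a restriction to protein-coding genes, a block for the replicate number, removal of the trend with gene length (loess span 0.3), and leaving out each pool. Scripts were tested on simulated counts. Plots were made in matplotlib 3.10.9 (Python 3.11.15).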

Additional observations from a re-analysis of the deposited data

How the results depend on the processing

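Over all genes tested, the count of 694 was 1995 with DESeq2, 428 with limma-voom and 0 to 892 when 1 pool was left out (0 without *Mttp-IKO* pool 2, by edgeR, with 3221 at an unadjusted p under 0.05). Of the members, 0 passed by edgeR, 3 by DESeq2 and 0 to 2 with 1 pool left out. The members that DESeq2 added had log2 fold changes of 0.96 (Alb), 1.59 (Afp) and 0.67 (Itih3). With 1 pool left out, Afp ranged from 0.68 to 1.95, Itih3 from 0.55 to 0.78, Trf from -0.19 to 0.078, Ahsg from -0.11 to 0.054, Gc from -0.22 to 0.078, Ambp from -0.045 to 0.28 and Fetub from -0.14 to 0.56, so that the last 5 have no fixed sign. Ahsg also turned to 0.0011 with DESeq2's size factors and by DESeq2, 0.0021 with protein-coding genes only and 0.060 with the length trend removed, and Gc turned to 0.037 with the length trend removed. Ambp turned to -0.11 with total counts only. That scaling moved the median of all genes to -0.17, and relative to the median Ambp was at 0.067 in both scalings and Alb at 0.95. The log2 ratio difference ranged with 1 pool left out from -0.34 to 0.72 for Afp/Alb, from -0.49 to 0.15 for Ahsg/Fetub and from -0.30 to 0.052 for Itih1/Itih3. Of the other genes named, Hp ranged from -0.23 to 0.25 with 1 pool left out, Cebpb from -0.10 to 0.74 and Zbtb20 from -0.16 to 0.57. The cause of these shifts was not tested.

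The replicate numbers are shared by the genotypes but the labels do not pair them. Deviations of same-numbered pools correlated at 0.139, 0.112 and 0.0070, and those of differently numbered pools at -0.125 to 0.021. The numbers were taken as names only because the labels give no pairing, a question that these values do not decide. With the replicate number as a block, 595 genes and 0 members passed, Tfr2 was at an adjusted p of 0.0516 (edgeR), and with the length trend removed as well 812 genes passed, no member among them, and Ahsg was at 0.061. With 25271585 to 36238734 reads per pool, Afp was the member with the fewest reads (228 to 1449 per pool), and with 3 pools per genotype no exact test of a share or ratio can pass 0.05.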
